A study of Mus musculus with 6 samples.

Results

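The 9 genes described here are genes of the primary (azurophil) granule stage of neutrophil development, together with Ctsc, which encodes the peptidase that activates the granule proteases. They are the serine proteases Elane, Prtn3, Ctsg and Prss57, the activator Ctsc, the peroxidase Mpo, the protease inhibitor Serpinb1a, and Ms4a3 and Fcnb, which are expressed at the same stage. They were selected by symbol from a table of 14992 genes, and they were chosen from their read counts in the comparison of inhibitor with vehicle described here, so their differences between those groups are a description. Where the calls of a fit over all genes are given for them, they stand beside the share of all genes called and support nothing. All 9 were among the 12806 genes with enough reads to enter the fit over all genes.

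Messenger RNA was measured in bone marrow of mice that had received whole marrow of Dnmt3a knockout mice after irradiation. Dnmt3a is a DNA methyltransferase of blood stem cells, and its loss was common to the donor marrow of both groups. The inhibitor group (libraries 1, 3 and 5, with "Bay" in their titles) held recipients given a PI3Kalpha/beta inhibitor at 75 mg/kg for 21 days, and the vehicle group (libraries 1, 2 and 3) held recipients given vehicle. The labels describe the transplanted marrow cells as leukemic and the recipients as C57/BL6. They do not say how Dnmt3a was deleted, how old the animals were, or that each library came from a different mouse, so p-values measure the spread between libraries, which may be technical. Whole marrow was sequenced, cells of the irradiated host may be present, and in such bulk RNA fewer cells of a type and less RNA per cell cannot be told apart.

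Primary granules are filled at the promyelocyte stage of neutrophil development. Neutrophil elastase (Elane), proteinase 3 (Prtn3), cathepsin G (Ctsg) and neutrophil serine protease 4 (Prss57) are made there as inactive proenzymes. Cathepsin C, encoded by Ctsc and also called dipeptidyl peptidase I, removes an N-terminal dipeptide from each of them and so makes them active. It does the same for granzymes of cytotoxic lymphocytes and for mast cell chymases, and it is made in macrophages and monocytes as well as in neutrophil precursors. In humans, inherited loss of CTSC causes Papillon-Lefèvre syndrome, in which neutrophil serine protease activity is nearly lost. The question was whether Ctsc moved apart from the proteases it activates.

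Ctsc was lower in inhibitor marrow and the other 8 genes were higher. Ctsc stood at 0.352 of its vehicle level (log2 fold change -1.51 ± 0.16, SE), while the 8 others had log2 fold changes of 0.68 to 1.07. Within each library, Ctsc had 12.3, 10.6 and 8.83 reads per 100 serine protease reads in inhibitor libraries 1, 3 and 5, against 76.4, 49.0 and 50.5 in vehicle libraries 1, 2 and 3. The groups did not overlap for any of the 9 genes, as was the case for 14.4% of all tested genes on the higher side and 16.2% on the lower side.

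The promoters of 5 members are shown because they let the sequence around the start sites of the proteases, Mpo and Ctsc be read beside their opposite differences. The windows run from 250 bases before to 50 bases after the start site in the RefSeq annotation of GRCm38.p6, read 5′ to 3′ on the strand of the gene. Of the 9 members, 7 were matched to this set of windows, and those of Prss57 and Serpinb1a were not used here. Capitals mark GAGGAA on either strand (TTCCTC where it lies on the opposite strand), a core sequence bound by the myeloid factor PU.1, and TGTGGT on either strand (ACCACA on the opposite strand), a core bound by RUNX factors. The windows are chr10:79886062-79886361 (plus strand) for Elane, chr10:79879417-79879716 (plus) for Prtn3, chr14:56102525-56102824 (minus) for Ctsg, chr11:87793534-87793833 (plus) for Mpo and chr7:88277835-88278134 (plus) for Ctsc.
Elane: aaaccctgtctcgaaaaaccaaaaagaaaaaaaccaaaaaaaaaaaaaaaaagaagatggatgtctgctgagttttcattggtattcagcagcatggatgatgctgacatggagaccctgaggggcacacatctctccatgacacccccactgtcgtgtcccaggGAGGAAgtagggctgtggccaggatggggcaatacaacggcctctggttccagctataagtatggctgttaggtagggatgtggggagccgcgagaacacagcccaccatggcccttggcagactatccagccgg
Prtn3: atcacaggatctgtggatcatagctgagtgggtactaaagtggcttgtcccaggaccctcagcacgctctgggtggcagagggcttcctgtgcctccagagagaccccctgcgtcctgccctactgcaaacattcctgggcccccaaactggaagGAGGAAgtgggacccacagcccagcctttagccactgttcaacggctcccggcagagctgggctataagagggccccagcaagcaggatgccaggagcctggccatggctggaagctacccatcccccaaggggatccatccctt
Ctsg: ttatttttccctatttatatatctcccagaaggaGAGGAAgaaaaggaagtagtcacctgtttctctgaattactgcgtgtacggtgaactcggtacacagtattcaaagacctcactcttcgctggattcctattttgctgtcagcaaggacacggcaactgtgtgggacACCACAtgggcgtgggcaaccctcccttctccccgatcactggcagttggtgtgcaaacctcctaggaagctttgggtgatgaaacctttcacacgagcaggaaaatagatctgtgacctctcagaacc
Mpo: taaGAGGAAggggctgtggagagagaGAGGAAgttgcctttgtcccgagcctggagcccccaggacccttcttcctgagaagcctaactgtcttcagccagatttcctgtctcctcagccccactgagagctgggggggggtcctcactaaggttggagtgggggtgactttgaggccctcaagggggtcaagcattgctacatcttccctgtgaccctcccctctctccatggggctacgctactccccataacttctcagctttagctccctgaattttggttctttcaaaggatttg
Ctsc: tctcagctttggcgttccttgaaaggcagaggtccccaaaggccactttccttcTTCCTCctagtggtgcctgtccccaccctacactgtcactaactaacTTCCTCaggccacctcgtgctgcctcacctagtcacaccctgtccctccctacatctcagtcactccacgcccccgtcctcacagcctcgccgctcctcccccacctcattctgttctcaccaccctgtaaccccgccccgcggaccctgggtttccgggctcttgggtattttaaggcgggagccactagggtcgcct

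GAGGAA was found in 6 of the 7 member windows, against 28.3% of all 32851 RefSeq windows of 300 bases. Its first base lay 85 bases before the start site in Elane (-85), at -95 in Prtn3, at -216 in Ctsg, at -247 and -224 in Mpo, and at -196 and -149 on the opposite strand in Ctsc. Ms4a3 held it at 36 bases after the start, and Fcnb did not hold it in this window. Ctsc therefore shared this motif with the genes that differed in the other direction. TGTGGT was found only in Ctsg among the 7 windows, at -79 on the opposite strand, against 16.8% of all windows. TTNNGNAA, bound by C/EBP factors and searched on both strands, was in 2 of 7 windows (Ms4a3 and Fcnb), against 40.7% of all windows. Only this form was searched, so a window without it may still hold a C/EBP site of other letters. The short MYB core AACNG was in 6 of 7 member windows and in 80.3% of all windows, and it is not marked in capitals. In Fcnb a C/EBP match overlapped a MYB match. These matches are letters in a window and were not measured as bound sites.

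The marrow libraries held 28198638 to 59384880 counted reads, and no pair of libraries of a group was a duplicate. The defining markers of marrow cells were present, since none of 14 late neutrophil granule, 20 macrophage, 12 monocyte and 8 lymphoid markers was at 0 in any library. Dnmt3a had 20.2, 15.4 and 15.5 CPM (read counts scaled by TMM to a common library size) in inhibitor libraries 1, 3 and 5 and 24.9, 17.3 and 18.9 CPM in vehicle libraries 1, 2 and 3. A count over the whole gene does not check a deletion of part of it, and both groups carry the knockout. Vehicle 1 stood apart from the other libraries. Its 20 macrophage markers summed to 14510 CPM, against 3785 and 4447 CPM in vehicles 2 and 3, and 18 of the 20 were highest in vehicle 1 among the vehicles. Results that rest on vehicle 1 are therefore also given without it.

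**Figure D1:**
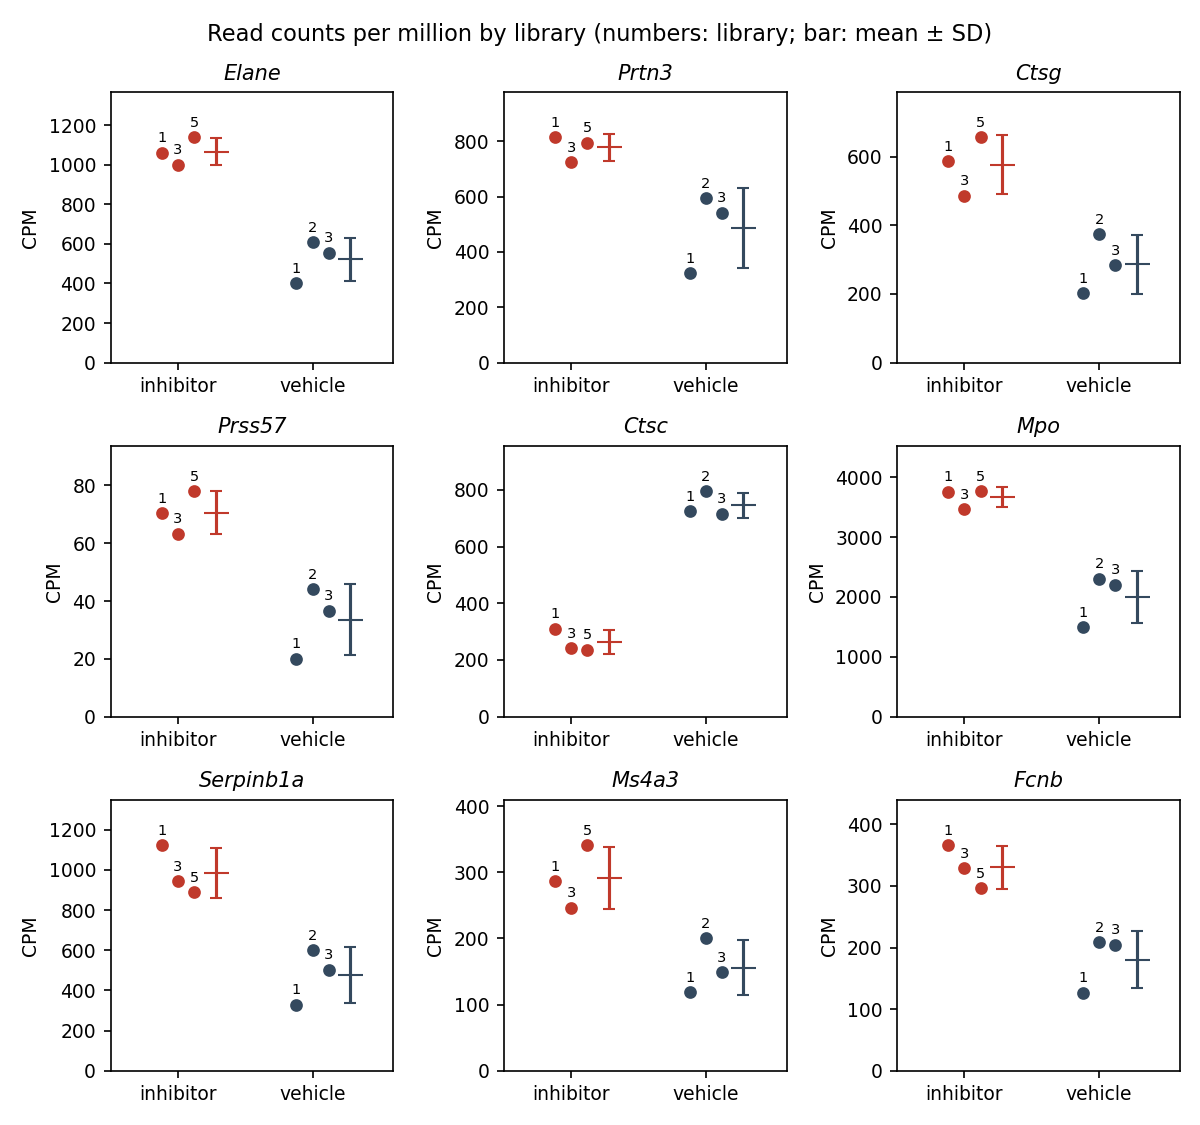
TMM-scaled read counts (CPM, linear axes from 0) of the 9 genes in each library, inhibitor left and vehicle right, with library numbers above the points and the mean ± SD beside them (n = 3 each). Ctsc is lower in all 3 inhibitor libraries (236 to 311 CPM) than in all 3 vehicle libraries (716 to 795 CPM), and the other 8 genes are higher, with vehicle 1 lowest in each of the 8.

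Elane, on chromosome 10 (mm10, 79886247 to 79888215, plus strand), encodes neutrophil elastase, which degrades bacterial proteins and elastin. It had 1060, 999 and 1139 CPM in inhibitor libraries 1, 3 and 5, against 401, 610 and 555 CPM in vehicle libraries 1, 2 and 3. The highest vehicle library reached 610 CPM and the lowest inhibitor library 999 CPM. The means were 1066 ± 70.2 CPM in inhibitor and 522 ± 108 CPM in vehicle (SD, n = 3 each), a log2 fold change of 1.03 ± 0.19 (SE).

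Prtn3, which lies 3072 bases upstream of Elane on the same strand, encodes proteinase 3, the main autoantigen of human ANCA vasculitis. It had 815, 723 and 794 CPM in inhibitor libraries 1, 3 and 5 and 323, 595 and 541 CPM in vehicle libraries 1, 2 and 3. Its log2 fold change of 0.68 ± 0.23 was the smallest of the 4 proteases, and without vehicle 1 it was 0.45. The gap between the groups ran from 595 CPM in vehicle 2 to 723 CPM in inhibitor 3.

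Ctsg, on chromosome 14 (56099881 to 56102574, minus strand), encodes cathepsin G, a protease with chymotrypsin-like specificity. Its level was 587, 487 and 657 CPM in inhibitor libraries 1, 3 and 5 and 203, 374 and 283 CPM in vehicle libraries 1, 2 and 3, a log2 fold change of 1.01 ± 0.24. Prss57 encodes neutrophil serine protease 4, which cleaves after arginine and is the scarcest of the 4 proteins in human neutrophils. It was also the lowest of the 4 here, at 70.5, 63.3 and 78.0 CPM in inhibitor libraries 1, 3 and 5 and 20.0, 44.0 and 36.6 CPM in vehicle libraries 1, 2 and 3. Its log2 fold change was 1.07 ± 0.27. Prss57 lies 83514 bases from Prtn3 on the opposite strand, and 40.7% of its exon bases overlap Fstl3, which runs the other way. The libraries do not mark strand, so reads of that overlap cannot be assigned, but Fstl3 itself had only 7.19, 4.69 and 3.62 CPM in inhibitor libraries 1, 3 and 5 and 2.71, 4.78 and 3.99 CPM in vehicle libraries 1, 2 and 3.

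Ctsc, on chromosome 7 (88278085 to 88310888, plus strand), had 311, 241 and 236 CPM in inhibitor libraries 1, 3 and 5. In vehicle libraries 1, 2 and 3 it had 724, 795 and 716 CPM. The vehicle libraries lay close together, including vehicle 1, and the highest inhibitor library was below 0.5 of the lowest vehicle library. Means were 262 ± 42.1 CPM in inhibitor and 745 ± 43.8 CPM in vehicle (SD, n = 3 each). The log2 fold change was -1.51 ± 0.16 with all libraries and -1.53 without vehicle 1.

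Mpo, on chromosome 11, encodes myeloperoxidase, the most abundant primary granule protein, which makes hypochlorous acid and is not activated by cathepsin C. It had 3757, 3468 and 3767 CPM in inhibitor libraries 1, 3 and 5 and 1494, 2303 and 2201 CPM in vehicle libraries 1, 2 and 3, a log2 fold change of 0.87 ± 0.20. An annotated gene on the opposite strand, not used here, shares 14.95% of its exon bases, and Prtn3 shares 9.18% of its exon bases with Plppr3 in the same way.

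Serpinb1a encodes a cytosolic serpin that inhibits elastase, proteinase 3 and cathepsin G and protects neutrophils from their own proteases. It had 1124, 943 and 889 CPM in inhibitor libraries 1, 3 and 5 and 328, 601 and 502 CPM in vehicle libraries 1, 2 and 3, with a log2 fold change of 1.05 ± 0.24. The inhibitor of the proteases was thus higher in the same libraries as the proteases. Its near copies Serpinb1b and Serpinb1c had 4 to 8 and 0 to 4 reads per library, so reads placed in those copies were few beside the 11498 to 34548 reads of Serpinb1a.

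Ms4a3 encodes a membrane protein that marks granulocyte-monocyte progenitors in the mouse. It had 287, 246 and 341 CPM in inhibitor libraries 1, 3 and 5 and 119, 200 and 149 CPM in vehicle libraries 1, 2 and 3, a log2 fold change of 0.90 ± 0.22. Fcnb encodes ficolin B, a lectin of the complement system made by neutrophil precursors. It had 366, 329 and 296 CPM in inhibitor libraries 1, 3 and 5 and 126, 209 and 204 CPM in vehicle libraries 1, 2 and 3, a log2 fold change of 0.88 ± 0.21. For both genes every inhibitor library lay above every vehicle library.

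**Figure D2:**
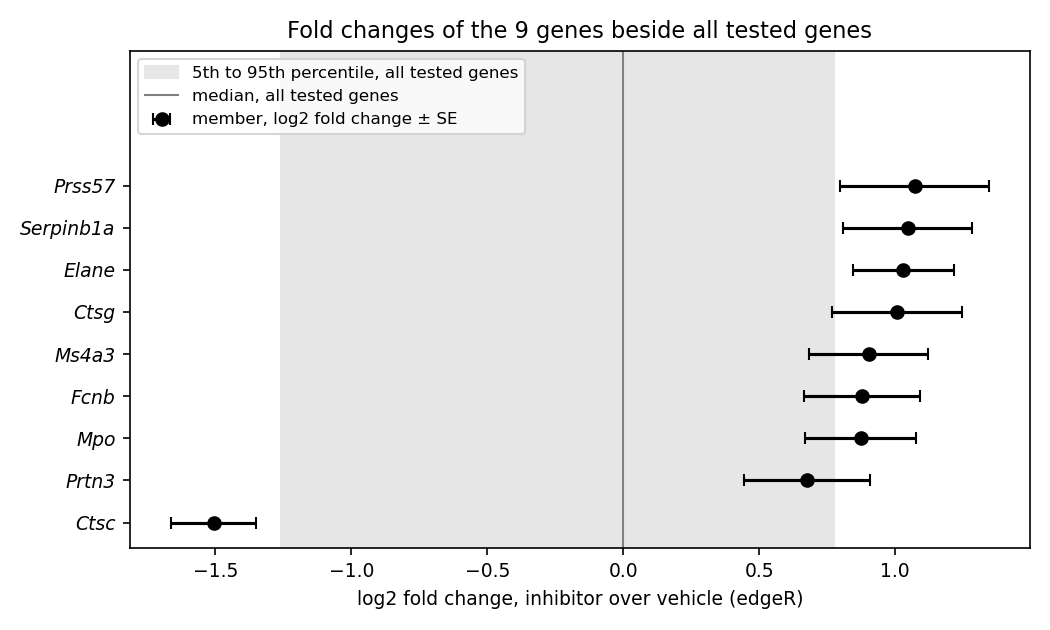
Log2 fold change ± SE (inhibitor over vehicle, edgeR, n = 3 each) of the 9 genes, with the 5th to 95th percentile of all 12806 tested genes shaded (-1.26 to 0.78). Ctsc lies below the band at -1.51, Prtn3 lies inside it at 0.68, and the other 7 lie above it, between 0.87 and 1.07.

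The median log2 fold change of the 8 genes other than Ctsc was 0.96, beside a median of 0.00 over all 12806 genes tested, and without vehicle 1 their log2 fold changes ran from 0.45 (Prtn3) to 0.87 (Elane). With edgeR's quasi-likelihood test at a Benjamini-Hochberg adjusted p under 0.05, 1 member (Elane) passed as higher, where 0.633% of all tested genes did, and 1 member (Ctsc) passed as lower, where 1.19% did. Without vehicle 1 the test passed 6 members as higher (Elane, Ctsg, Prss57, Mpo, Serpinb1a and Fcnb), against 3.1% of genes tested, and Ctsc as lower, against 4.89%. DESeq2 passed 7 members as higher, all but Prtn3, against 4.91% of genes, and Ctsc as lower, against 7.24%. The authors' deposited table passed the same 7 as higher, against 4.24% of its genes with an adjusted p, and Ctsc as lower, against 6.57%. The comparison was used to choose the members, so these counts describe them and support nothing. Elane did not pass edgeR's test without vehicle 2 (nor did Cd63, a granule membrane gene, or Gfi1, a transcriptional repressor), and neither Elane nor Ctsc passed it without vehicle 3 or without inhibitor 1, 3 or 5, where 0 genes passed at all. At an unadjusted p under 0.05, those 4 fits had 2398, 2174, 1832 and 2223 genes.

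Ratios within a library do not depend on its depth or scaling, so they show how the members moved relative to each other. The log2 level of Ctsc minus the mean log2 level of the 4 proteases was -0.49, -0.68 and -0.98 in inhibitor libraries 1, 3 and 5, and 2.24, 1.51 and 1.59 in vehicle libraries 1, 2 and 3. Ctsc reads thus lay below the proteases' mean in each inhibitor library and above it in each vehicle library. The group means were -0.72 ± 0.25 in inhibitor and 1.78 ± 0.40 in vehicle (SD, n = 3 each), a difference of -2.49. The difference ran from -2.63 to -2.26 over the 12 alternative priors, protease sets, scalings and left-out libraries tried, and it was -2.26 without vehicle 1.

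Against Elane alone, Ctsc had 0.293, 0.241 and 0.207 reads per Elane read in inhibitor libraries 1, 3 and 5 and 1.80, 1.31 and 1.29 in vehicle libraries 1, 2 and 3. Against Serpinb1a, it had 0.277, 0.255 and 0.265 reads per read in inhibitor libraries 1, 3 and 5 and 2.21, 1.32 and 1.42 in vehicle libraries 1, 2 and 3. The inhibitor and vehicle ranges of Ctsc were separate against every other member. That follows from the levels, since Ctsc was lower and each other member higher without overlap, and it is not a further result.

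**Figure D3:**
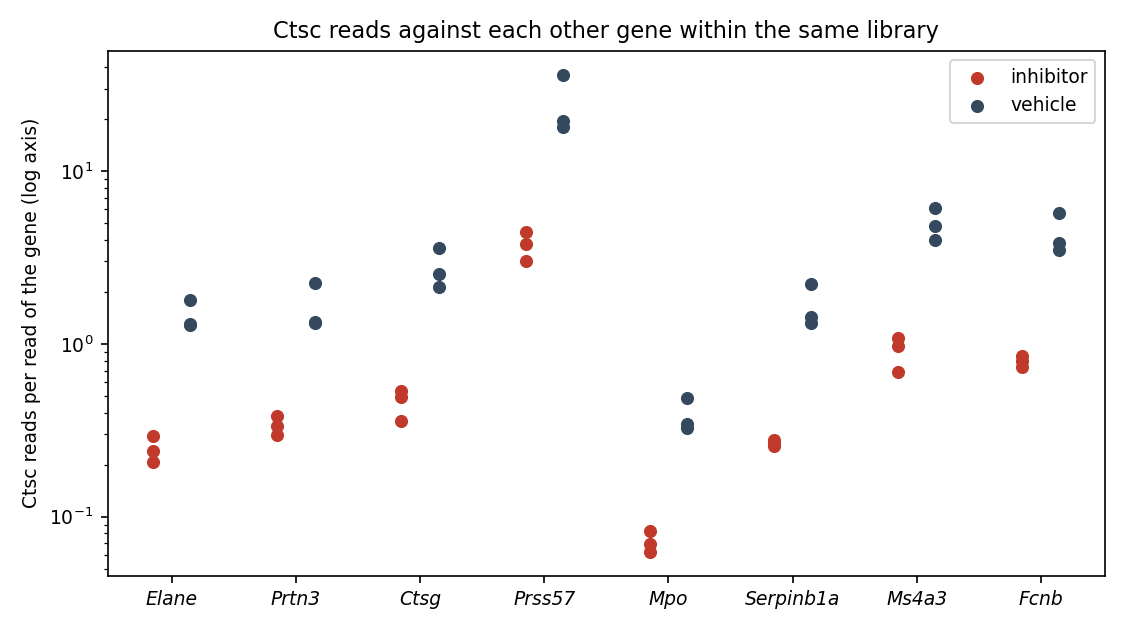
Ctsc reads per read of each of the other 8 genes within the same library (log axis), inhibitor points left and vehicle points right for each gene, 1 point per library. Against Elane the 3 inhibitor libraries lie at 0.207 to 0.293 and the 3 vehicle libraries at 1.29 to 1.80. The groups are apart for all 8 genes, which follows from the separate levels of each gene.

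Among the other 8 genes the ratios moved little. Ctsg, Prss57, Serpinb1a, Ms4a3 and Fcnb had overlapping ratios to Elane in the 2 groups. Prtn3 had 0.769, 0.724 and 0.697 reads per Elane read in inhibitor libraries 1, 3 and 5 and 0.805, 0.976 and 0.976 in vehicle libraries 1, 2 and 3. Mpo had 3.55, 3.47 and 3.31 reads per Elane read in inhibitor libraries 1, 3 and 5 and 3.72, 3.78 and 3.97 in vehicle libraries 1, 2 and 3. Prtn3 and Mpo were therefore lower relative to Elane in inhibitor marrow without overlap, by 0.33 and 0.15 on the log2 scale of group means, beside 2.57 for Ctsc. The share of all genes whose ratio to Elane separates the groups was not counted, so this is a description. In plain levels, 14.4% of all tested genes were higher without overlap and 16.2% lower.

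Divided by gene length, the order of the members changed only at Ctsc. In inhibitor marrow the mean levels in CPM per kilobase were 1439 ± 66.6 for Mpo, 1159 ± 76.3 for Elane, 801 ± 49.5 for Prtn3, 576 ± 85.3 for Ctsg, 514 ± 64.1 for Serpinb1a, 311 ± 33.2 for Fcnb, 289 ± 47.0 for Ms4a3, 106 ± 17.0 for Ctsc and 26.2 ± 2.73 for Prss57 (SD, n = 3). In vehicle marrow they were 785 ± 173 for Mpo, 567 ± 117 for Elane, 502 ± 148 for Prtn3, 301 ± 17.7 for Ctsc, 286 ± 85.5 for Ctsg, 249 ± 72.2 for Serpinb1a, 169 ± 43.6 for Fcnb, 154 ± 40.8 for Ms4a3 and 12.5 ± 4.56 for Prss57 (SD, n = 3). Ctsc was 8 of 9 in inhibitor marrow and 4 of 9 in vehicle marrow. Some neighbours in this order changed places between the libraries of a group. In inhibitor marrow these were Ctsg and Serpinb1a, and Fcnb and Ms4a3. In vehicle marrow they were Ctsc and Ctsg, and Fcnb and Ms4a3. The means of Mpo and Elane, and of Elane and Prtn3, overlapped within 1 SD in vehicle marrow. Within each vehicle library, however, Mpo lay above Elane and Elane above Prtn3, as Ctsg lay above Serpinb1a and Serpinb1a above Fcnb. Among all 14992 genes, Ctsc ranked 693 per kilobase in inhibitor and 208 in vehicle, whereas Mpo ranked 36 in inhibitor and 68 in vehicle. The 8 genes other than Ctsc together took 0.732%, 0.692% and 0.797% of the reads in inhibitor libraries 1, 3 and 5, and 0.313%, 0.518% and 0.473% in vehicle libraries 1, 2 and 3.

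Ctsc and the other members also differed within the vehicle group, in the library that stood apart. Vehicle 1 held 0.959 of the mean Ctsc level of vehicles 2 and 3. For the other 8 genes it held between 0.497 (Prss57) and 0.690 (Elane) of that mean. The 14 late granule genes, such as Camp and Ltf, which neutrophils make after the primary granule genes, had a median of 0.640, and the 20 macrophage markers a median of 3.47. Ctsc in vehicle 1 thus lay near the other vehicles, whereas the proteases lay with the late granule genes.

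**Figure D4:**
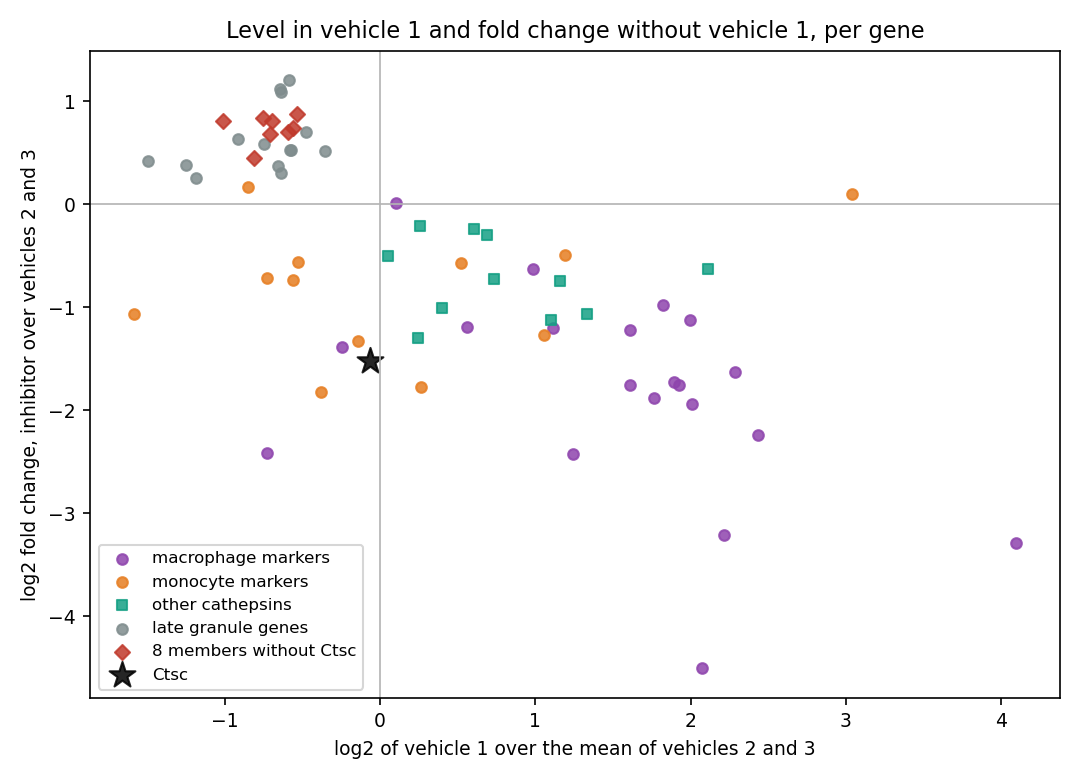
Log2 of the level in vehicle 1 over the mean of vehicles 2 and 3 (x axis) against the log2 fold change of inhibitor over vehicles 2 and 3 with vehicle 1 left out (y axis), 1 point per gene of the marker lists and members. The 8 members without Ctsc lie at the upper left among the late granule genes. Ctsc lies at -0.06 on x and -1.53 on y, left of the other cathepsins. The monocyte marker Clec4a1 (-0.14 and -1.33) and the macrophage marker Maf (-0.24 and -1.39) lie near it. Many other markers of both lists lie farther away.

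Markers of other cells moved with the comparison. The late granule genes summed to 137098, 125693 and 109014 CPM in inhibitor libraries 1, 3 and 5 and 45279, 73111 and 67117 CPM in vehicle libraries 1, 2 and 3. All 14 had a positive log2 fold change, with a median of 0.73, and 1 of them (Camp, an antimicrobial peptide gene, 1.38 ± 0.23) rose past the test (edgeR adjusted p = 0.042), where 3 did without vehicle 1. The macrophage markers summed to 1438, 1947 and 1739 CPM in inhibitor libraries 1, 3 and 5 and 14510, 3785 and 4447 CPM in vehicle libraries 1, 2 and 3. Of the 20, 6 fell past the test and 0 rose, with a median log2 fold change of -2.58. Without vehicle 1, 18 fell and the median was -1.74. The 12 monocyte markers summed to 3998, 3345 and 2961 CPM in inhibitor libraries 1, 3 and 5 and 4735, 5097 and 5635 CPM in vehicle libraries 1, 2 and 3. There 3 fell past the test and 0 rose, with a median of -0.88, and without vehicle 1 the number was 7 and the median -0.73. Of the 8 lymphoid markers, 0 passed, with a median of 0.29. The part that any of these cell types has in the values of Ctsc or of the proteases was not tested.

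The genes that process or restrain cathepsin C came next. In this list of 6 genes, 0 rose and 0 fell, and the median log2 fold change was -0.78 with all libraries and -0.46 without vehicle 1. Cst7, cystatin F, a granule inhibitor of cathepsin C, had 52.5, 54.4 and 55.7 CPM in inhibitor libraries 1, 3 and 5 and 30.0, 48.1 and 42.1 CPM in vehicle libraries 1, 2 and 3 (log2 fold change 0.44 ± 0.18, edgeR adjusted p = 0.215). Without vehicle 1 its log2 fold change was 0.27, and it passed under none of the 13 alternatives (adjusted p of 0.0576 to 0.520). Ctsl and Ctss, which can cleave the human cathepsin C proenzyme in vitro, had log2 fold changes of -1.24 ± 0.32 and -1.65 ± 0.38, and Lgmn, a lysosomal asparaginyl endopeptidase, one of -2.73 ± 0.53. These 3 genes were named after their values were seen, and their levels in vehicle 1 were 2.23, 2.52 and 3.51 times the mean of vehicles 2 and 3. Without vehicle 1 they passed the test at -0.75 for Ctsl, -1.07 for Ctss and -1.85 for Lgmn (edgeR adjusted p of 0.013, 0.0088 and 0.0023).

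The other lysosomal cathepsins were described as neighbours of Ctsc by enzyme class. All 11 had a negative log2 fold change, with a median of -1.15, and of -0.72 without vehicle 1. Ctsz, a carboxypeptidase, fell past the test, with 142, 147 and 136 CPM in inhibitor libraries 1, 3 and 5 and 376, 277 and 292 CPM in vehicle libraries 1, 2 and 3 (-1.15 ± 0.15, edgeR adjusted p = 0.0272). Ctsb, named after its values were seen, had 651, 702 and 681 CPM in inhibitor libraries 1, 3 and 5 and 3168, 1398 and 1556 CPM in vehicle libraries 1, 2 and 3 (-1.59 ± 0.32, edgeR adjusted p = 0.0563). Of the 11, 9 were highest in vehicle 1 among the vehicles, with a median of 1.61 times vehicles 2 and 3, where Ctsc had 0.959. Without vehicle 1, 5 of the 11 passed as lower.

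The other substrates of cathepsin C in the table had lower levels than Elane, Prtn3 or Ctsg. Of 10 granzyme, chymase and mast cell protease genes, 7 were in the table and 6 were tested, 0 rose and 0 fell, and every log2 fold change among the 6 was below 0 (median -0.31). Without vehicle 1, 1 fell and the median was -0.51. Mcpt8, a basophil protease and the most abundant of them, had 72.7, 94.5 and 74.0 CPM in inhibitor libraries 1, 3 and 5 and 47.6, 122 and 96.8 CPM in vehicle libraries 1, 2 and 3, so the groups overlapped. These 6 log2 fold changes thus did not share the sign of the neutrophil proteases. Those of Mcpt8, Cma1 and Gzmk lay within their SE of 0 (-0.14 ± 0.32, -0.15 ± 0.62 and -0.28 ± 0.33), so their sign was not settled. Gzmb, Gzmm and Gzma had -1.22 ± 0.37, -1.12 ± 0.40 and -0.33 ± 0.25 (edgeR adjusted p = 0.12, 0.17 and 0.48). Gzmb in vehicle 1 was 2.45 times the mean of vehicles 2 and 3. Gzmm was scarce, with means of 0.97 CPM in inhibitor and 2.1 CPM in vehicle.

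Other inhibitors of serine proteases were mixed. Of 14 listed, 12 were in the table and 10 were tested, 0 rose and 0 fell, and the median log2 fold change was 0.21. Without vehicle 1, 1 rose, 1 fell and the median was 0.41. Slpi, a secreted inhibitor of elastase and cathepsin G, had 341, 305 and 212 CPM in inhibitor libraries 1, 3 and 5 and 140, 223 and 170 CPM in vehicle libraries 1, 2 and 3 (0.69 ± 0.23, edgeR adjusted p = 0.153). Its groups overlapped, whereas those of Serpinb1a did not.

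Among 10 tested genes of granule content and packaging, 1 rose, 0 fell, and the median log2 fold change was -0.09. Cd63, a tetraspanin of the primary granule membrane that is needed to sort elastase in neutrophil precursors, had 257, 248 and 260 CPM in inhibitor libraries 1, 3 and 5 and 159, 135 and 131 CPM in vehicle libraries 1, 2 and 3 (0.85 ± 0.12, edgeR adjusted p = 0.0342). Srgn, the proteoglycan serglycin that holds the proteases in the granule, had a log2 fold change of 0.48 ± 0.19 (edgeR adjusted p = 0.208), and Lyz2, lysozyme, one of 0.89 ± 0.30 (edgeR adjusted p = 0.152). Bpi, a bactericidal primary granule protein in humans, had 0 to 3 reads per library and was not tested. The lysosomal enzymes and the subunits of the AP-3 sorting adaptor in this list had log2 fold changes between -0.67 and 0.57, and none passed. Without vehicle 1, 2 genes of this list rose.

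Of 12 regulators of primary granule genes, 1 rose and 0 fell, with a median log2 fold change of 0.13. Gfi1, a transcriptional repressor needed for neutrophil maturation, had 85.2, 75.7 and 74.1 CPM in inhibitor libraries 1, 3 and 5 and 27.5, 40.3 and 40.4 CPM in vehicle libraries 1, 2 and 3 (1.12 ± 0.17, edgeR adjusted p = 0.0402). Its groups were widely separated, and without vehicle 1 the list had 3 genes that rose and 2 that fell, with a median of 0.01. Cebpe, which drives the later granule genes, had 282, 244 and 222 CPM in inhibitor libraries 1, 3 and 5 and 51.4, 134 and 136 CPM in vehicle libraries 1, 2 and 3 (1.22 ± 0.35, edgeR adjusted p = 0.105). Cebpa, needed to form granulocyte-monocyte progenitors, had 90.7, 91.3 and 83.5 CPM in inhibitor libraries 1, 3 and 5 and 79.6, 84.3 and 98.8 CPM in vehicle libraries 1, 2 and 3, and its log2 fold change of 0.01 ± 0.12 changed sign under 4 of 13 alternatives. Spi1, which encodes PU.1, and Runx1 had log2 fold changes of 0.16 ± 0.19 and -0.00 ± 0.12. In the list, 8 log2 fold changes were positive and 4 negative. Named after their values were seen, Klf4 had -1.10 ± 0.21 (edgeR adjusted p = 0.0537) and Irf8 -0.64 ± 0.19 (edgeR adjusted p = 0.108). Cebpb had -0.72 ± 0.34 (edgeR adjusted p = 0.275).

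**Figure D5:**
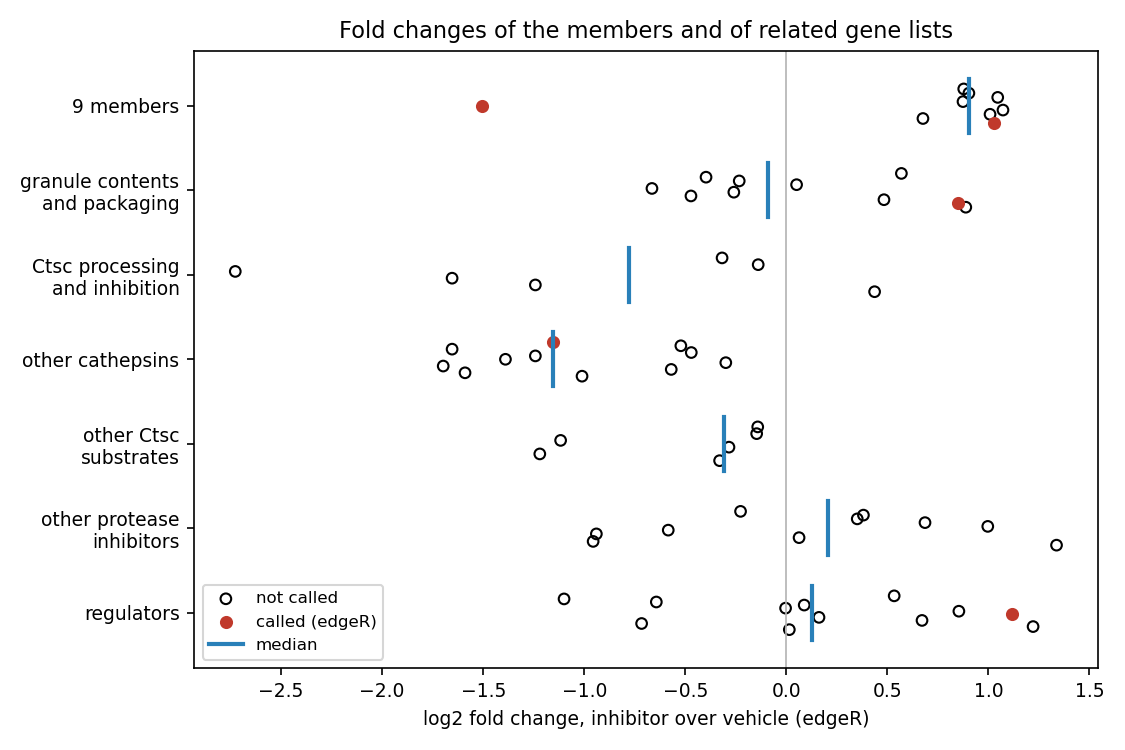
Log2 fold change (inhibitor over vehicle, edgeR, n = 3 each) of every tested gene in the 9 members and in 6 related lists, filled where the gene passed the test, with the median of each row as a bar. Elane and Ctsc among the members, Cd63, Ctsz and Gfi1 passed, and the medians of the 6 lists run from -1.15 (other cathepsins) to 0.21 (other protease inhibitors).

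Profiles over the 6 libraries were compared by the root mean square distance of centred log2(CPM + 1) values. The closest genes were sought among 9465 tested genes outside the members that averaged 5 CPM or more. Genes with provisional symbols, such as Gm or Rik names, were left out of that set. From the mean of the 4 proteases (for a protease itself, the mean of the others), Ctsc lay at a distance of 1.28, and the other members at 0.092 to 0.188. The 5 genes closest to Ctsc were Ms4a6d (0.117), Lima1 (0.124), Nxpe5 (0.134), Irf2bpl (0.153) and Clec4a1 (0.155), where the median gene lay at 0.804. Ms4a6d, of the same gene family as Ms4a3, had 52.5, 37.5 and 35.3 CPM in inhibitor libraries 1, 3 and 5 and 142, 126 and 121 CPM in vehicle libraries 1, 2 and 3. Clec4a1, a C-type lectin receptor, is on the monocyte list. Both fell past the test, as did the other 3, which is what likeness to Ctsc selects. The 5 genes closest to the proteases were Myb (0.0658), Ptgr1 (0.0774), Mtf2 (0.0912), Trem3 (0.0945) and Hmgn2 (0.0973), where the median gene lay at 0.578. Myb, a transcription factor of immature blood cells that is known to activate the mouse elastase promoter, had 222, 200 and 259 CPM in inhibitor libraries 1, 3 and 5 and 83.4, 155 and 138 CPM in vehicle libraries 1, 2 and 3 (log2 fold change 0.85 ± 0.24, edgeR adjusted p = 0.0999). With all libraries 0 of these 5 passed the test. Without vehicle 1, and with DESeq2 or limma voom, all 5 passed as higher.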

How the data were processed

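Per the labels' protocols, total RNA of bone marrow cells was purified with a column kit, and libraries were made with SMART-Seq v4 and Nextera XT, which do not mark strand. STAR, featureCounts and the mm10 build are named in the submitters' processing notes, without versions. The authors deposited raw read counts for 14992 genes in each library. Beside the counts, the deposited table gives the length of each gene. Per the file headers it also gives the authors' own result for each gene: the ratio of the groups (fold change), its log2 value, and p-values before and after adjustment. The sources used here do not give the test behind it.

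The treatment given in the labels set the groups. The quasi-likelihood F test of edgeR 4.0.16 (R 4.3.3) was run on the counts with group as the only term, after filterByExpr (12806 genes tested, 2186 left out) and TMM scaling. A gene was called at a Benjamini-Hochberg adjusted p under 0.05 over all tested genes. Variation between libraries beyond counting error had a coefficient of 25.2%, and it may be technical. Standard errors were derived from the size of the log2 fold change and the root of its F value. Levels are TMM-scaled CPM, log2 levels add a prior of 1 CPM, and levels per kilobase use the deposited lengths. The alternatives tried were other scalings (DESeq2 size factors or the upper quartile), other tests (DESeq2 1.42.0, limma voom 3.58.1 with quality weights), other filters (none, or 5 CPM in 3 libraries), a replicate block, and leaving out each library. The fitting steps were tested on simulated data.

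The members and the gene lists were chosen with earlier results of these data known, and the lists rest on general knowledge of these genes. Besides the members, genes are named if they are Cst7, Bpi, Srgn, Lyz2, Cebpa, Cebpe, Gfi1 or Slpi, if they passed the test within a related list (up to 4 with the smallest p), or if they are the 5 genes closest to Ctsc or to the proteases in profile. Others were named after their values were seen. Exon overlaps come from GENCODE vM21 and promoters from RefSeq (GRCm38.p6).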

Additional observations from a re-analysis of the deposited data

How the results depend on the processing

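Each member kept the sign of its log2 fold change under the 13 alternatives, from -1.64 to -1.40 for Ctsc and from 0.43 (Prtn3) to 1.34 (Serpinb1a) for the other 8. The numbers of genes called differed. Of 12806 genes tested, the main edgeR fit called 81 higher and 153 lower. Limma voom with quality weights called 1374 higher and 1483 lower of the same number. Upper-quartile scaling called 79 higher and 165 lower of them. The replicate block called 0 higher and 7 lower of them, with 1438 genes at an unadjusted p under 0.05. DESeq2 called 628 higher (4.91% of its genes) and 926 lower (7.24%). Leaving out each library gave 0 to 401 higher and 0 to 633 lower, most without vehicle 1, whose quality weight was 0.161. Of the members, 2 were called by edgeR, 8 by DESeq2, 9 by limma voom, 1 with upper-quartile scaling (Ctsc), 0 with the replicate block and 0 to 7 with a library left out. The cause of these differences was not tested. Replicate numbers 1 and 3 occur in both groups, but libraries with the same number did not deviate together (correlations of -0.51 for number 1 and -0.10 for number 3). With so few libraries, and vehicle 1 apart from the others, these values cannot decide whether the numbers pair the libraries. The log2 fold change of Cebpa reversed to -0.012 with limma voom, -0.0021 without inhibitor 3 and -0.012 without vehicle 2, and ran from -0.050 (without vehicle 1) to 0.11 with a library left out. Counting error was small beside the spread between libraries, since the lowest member count was 703 reads (Prss57 in vehicle 1).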

Other observations

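Relatives of the members and of their inhibitors were read after the main values, and were chosen after their values were seen. The stefins are small cysteine protease inhibitors of neutrophil precursors in the mouse and belong to the same inhibitor superfamily as Cst7. Stfa3 had 7.12, 7.11 and 7.11 CPM in inhibitor libraries 1, 3 and 5 and 2.45, 2.40 and 1.59 CPM in vehicle libraries 1, 2 and 3, and rose past the test with a log2 fold change of 1.73 ± 0.24 (edgeR adjusted p = 0.0323, range over the alternatives 2.05e-09 to 0.154). Stfa2l1 had 93.1, 75.4 and 63.1 CPM in inhibitor libraries 1, 3 and 5 and 44.1, 41.9 and 32.9 CPM in vehicle libraries 1, 2 and 3 (0.96 ± 0.18, edgeR adjusted p = 0.0531). Stfa1 had a log2 fold change of 1.16 ± 0.35 (edgeR adjusted p = 0.119). Stfa2 had 8.23, 4.73 and 6.34 CPM in inhibitor libraries 1, 3 and 5 and 6.84, 2.62 and 2.39 CPM in vehicle libraries 1, 2 and 3, so its groups overlapped (0.71 ± 0.45, edgeR adjusted p = 0.392). The stefin copies are nearly identical in sequence, so how reads were divided among them is uncertain.

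Fcna, the macrophage paralog of the neutrophil gene Fcnb, had 20.6, 97.8 and 90.4 CPM in inhibitor libraries 1, 3 and 5 and 975, 177 and 260 CPM in vehicle libraries 1, 2 and 3. Its log2 fold change was -2.76 ± 0.80 (edgeR adjusted p = 0.108) and -1.65 without vehicle 1, where Fcnb had 0.88 and 0.68. The ficolin genes therefore had opposite signs, and Fcna, unlike Fcnb, was highest in vehicle 1.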
